A study of Mus musculus with 4 samples.

Results

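The genes described here encode secreted matricellular and matrix proteins (Sparc, Spp1, Tnc, Thbs1, Thbs2, Postn and Fn1), the hyaluronan synthases Has1 and Has2, and the hyaluronan receptor Cd44. They were chosen by name, and every probe set whose only gene symbol in the array annotation is one of these 10 names was taken. This gave 20 of the 45101 probe sets on the array, for 9 of the 10 genes. Spp1, which encodes osteopontin, had no probe set named with it alone and was not analysed here, and 1 probe set named with Thbs1 and another gene was not used. The samples were 2 Eph_EN_DN tumours and 2 Eph_EN tumours of mouse mammary epithelial origin, with 1 Affymetrix mouse genome array for each tumour. Eph_EN_DN tumours grew in nude mice from Eph4 cells transduced with ETV6-NTRK3 that also expressed TAM67, a dominant negative c-Jun. Eph_EN tumours grew in nude mice from Eph4 cells transduced with ETV6-NTRK3 alone, so both groups carry the fusion oncogene and the nude host. Eph4 is an established mouse mammary epithelial cell line, ETV6-NTRK3 fuses a transcription factor gene to the kinase part of a neurotrophin receptor gene, and c-Jun is a subunit of the AP-1 transcription factor. The promoter that drove each construct, the number of clones and the age of the mice are not stated in the labels. The comparison addressed how far tumour formation by ETV6-NTRK3 depends on AP-1.

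Matricellular proteins are secreted into the extracellular matrix, where they mainly regulate how cells attach, move and respond to growth factors rather than serve as structural fibres. In tumours many of them are made by stromal fibroblasts as well as by the tumour cells, and they act through integrins and other surface receptors. Hyaluronan is a long sugar polymer spun out by synthases in the plasma membrane, and Cd44 is its main surface receptor. Nude mice lack a normal thymus but keep fibroblasts, vessels and macrophages, so a tumour sample holds RNA of the transplanted cells and of the host. In such bulk samples, fewer cells of a type and less RNA per cell cannot be told apart.

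Promoter sequence is shown for Sparc, Tnc and Postn, the genes with the lowest p-values below, because the study perturbs a promoter-binding factor. RefSeq start sites (build GRCm38.p6) were found for 7 of the 10 genes, with 10 starts in all, and the 250 bases before each start were searched on both strands. The first listed start of each gene is printed from 5′ to 3′ on the gene's own strand, in lower case with any match in capitals. The windows are chr11:55420081-55420330, minus strand for Sparc, chr4:64047016-64047265, minus strand for Tnc and chr3:54359017-54359266, plus strand for Postn.
Sparc: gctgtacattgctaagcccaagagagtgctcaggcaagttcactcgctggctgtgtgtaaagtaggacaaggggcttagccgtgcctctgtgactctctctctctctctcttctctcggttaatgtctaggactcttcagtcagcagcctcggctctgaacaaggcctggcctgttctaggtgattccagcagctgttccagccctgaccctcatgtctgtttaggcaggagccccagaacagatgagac
Tnc: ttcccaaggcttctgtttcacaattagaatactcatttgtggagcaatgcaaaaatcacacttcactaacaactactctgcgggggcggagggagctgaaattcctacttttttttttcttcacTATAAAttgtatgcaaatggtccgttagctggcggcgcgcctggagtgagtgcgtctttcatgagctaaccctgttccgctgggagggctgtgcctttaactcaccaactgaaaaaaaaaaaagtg
Postn: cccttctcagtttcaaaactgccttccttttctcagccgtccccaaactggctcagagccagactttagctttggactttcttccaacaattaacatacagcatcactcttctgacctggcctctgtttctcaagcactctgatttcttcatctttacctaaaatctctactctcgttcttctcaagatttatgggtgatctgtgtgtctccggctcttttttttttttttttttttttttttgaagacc
The AP-1 motif TGAGTCA, which reads TGACTCA on the other strand, was found in 0 of the 10 windows of these genes, and 4.46% of 32841 windows of the same length held it. No match says only that these letters are not in this window. The cyclic AMP response element TGACGTCA, which is the same on both strands, was present in 1.55% of windows and in 1 window of this gene set, that of Has1, where it began 83 bases before the start. It is shown in capitals at chr17:17855253-17855282, minus strand.
Has1: cagacttgtccTGACGTCAgccctcctcca
The TATA motif TATAAA, present on either strand in 12.4% of windows, was found in 5 of the 10 windows of this gene set (Spp1, both Tnc starts, Thbs2 and Postn). It is the capitalised run in the Tnc window, where it began 126 bases before the start. The 2 Tnc windows overlap and hold this same site, so the 5 windows hold matches of only 4 genes. The matches of Spp1 and Thbs2 also began 126 or more bases before the start, that of Thbs2 on the other strand. At the second listed start of Postn the motif began 26 bases before the start, shown in capitals at chr3:54361069-54361098, plus strand.
Postn: agcccagagctaTATAAActcagctctcca

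Probe sets of the secreted matrix proteins mostly read lower in Eph_EN_DN tumours (11 of the 13 tested had a negative difference), but none of this gene set passed the test. Over the whole gene set, 16 of the 18 tested had a negative difference, where 45.1% of all probe sets tested had one. All values are linear intensities in the authors' units, and all differences are Eph_EN_DN minus Eph_EN of log2(intensity + 16), for 2 tumours a group (n = 2). Of the 20 probe sets, 18 were bright enough to be tested, and the other 2 (1 each of Cd44 and Has2) were left out as dim. At an adjusted p under 0.05, 0 of the 18 were lower and 0 were higher, where 0.159% of the 27022 probe sets tested were lower and 0.0555% higher. At an unadjusted p under 0.05, 9 of the 18 were lower and 0 higher, beside 4.27% lower and 5.06% higher among all probe sets tested. The groups did not overlap in 9 of the 18, all lower in Eph_EN_DN tumours, where 18.2% of all probe sets tested were lower without overlap and 21.6% higher. Counting the dim probe sets too, the groups were lower without overlap in 10 of 20, against 15.9% of 45037 probe sets. The median difference of the 18 was -0.53, beside 0.039 over all probe sets tested. The genes were chosen with results of these arrays already known, so these counts describe the set and support nothing by themselves.

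**Figure D1:**
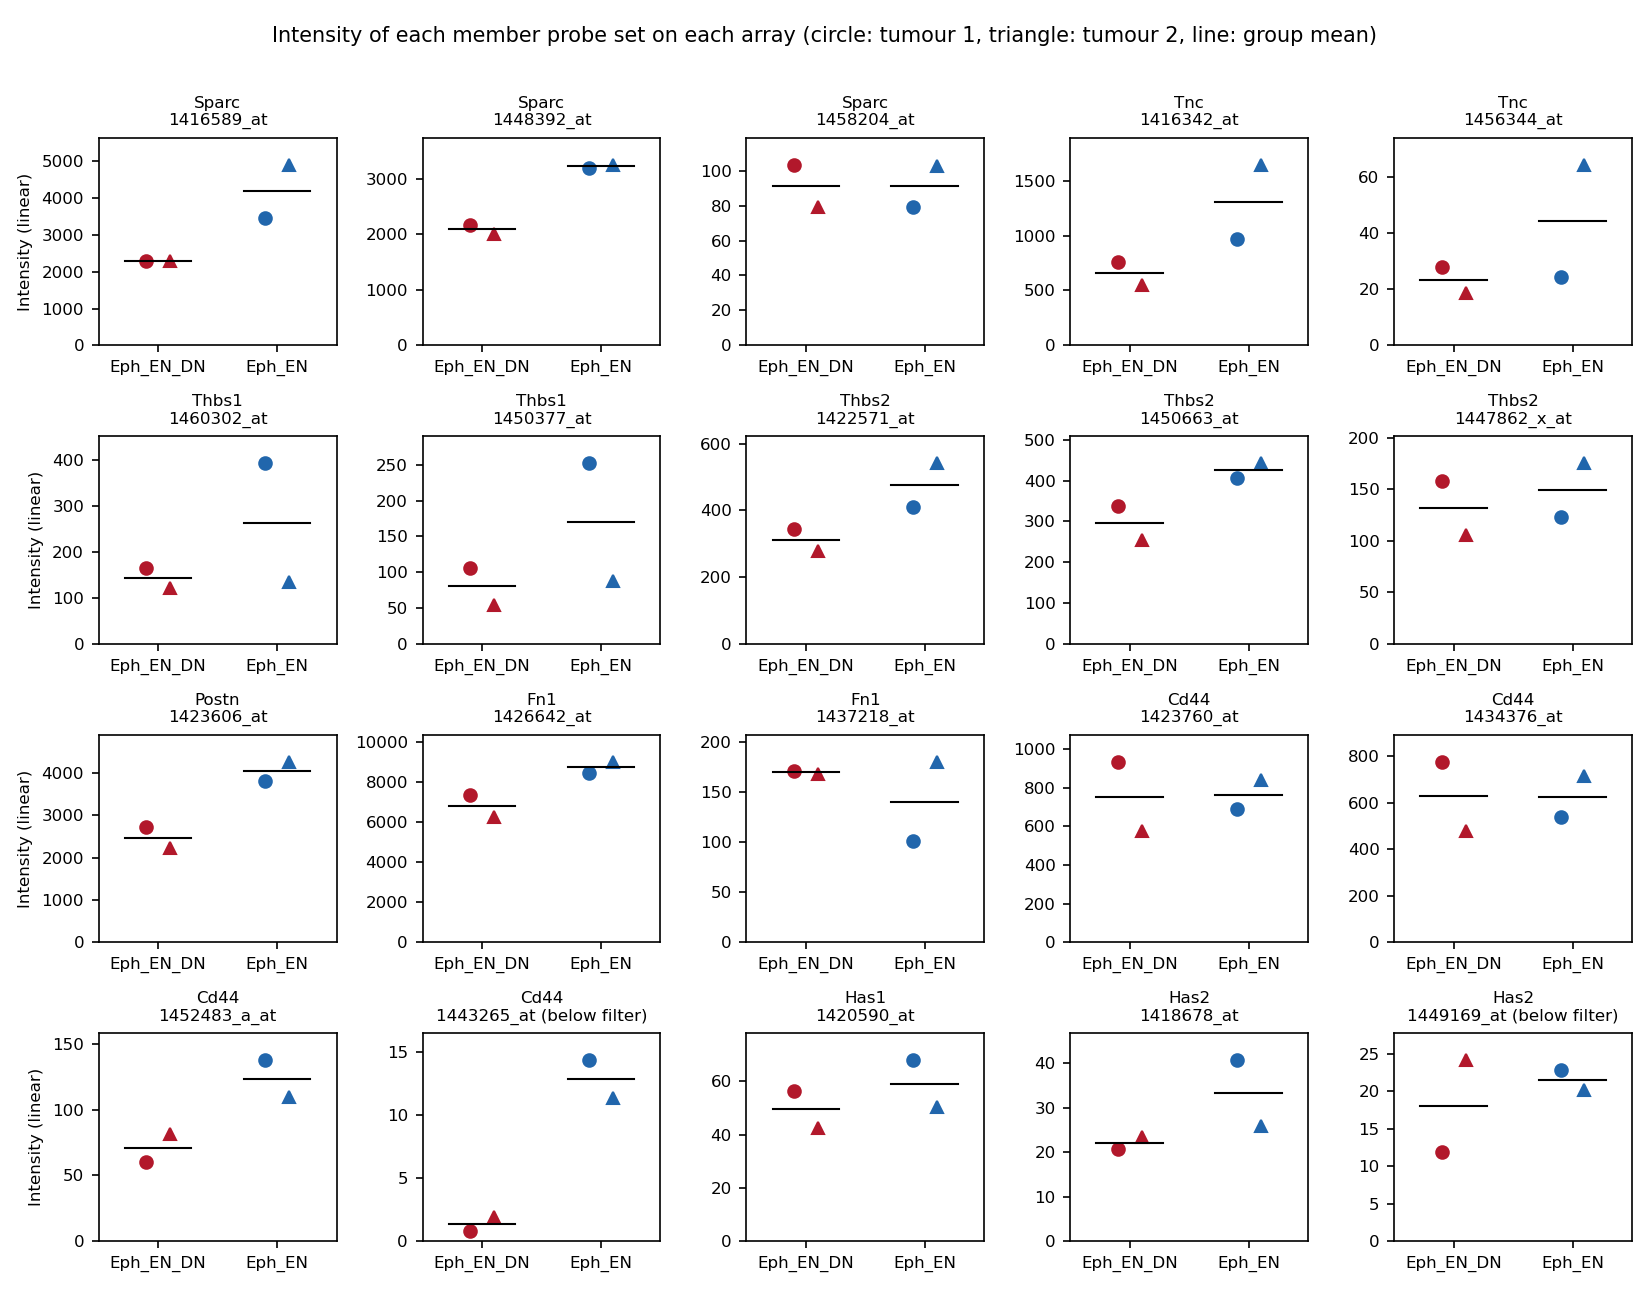
Linear intensity of each of the 20 probe sets (vertical axes, each from 0), with the 2 Eph_EN_DN tumours in red and the 2 Eph_EN tumours in blue, circles for tumour 1, triangles for tumour 2 and lines for group means. Sparc 1416589_at, Tnc 1416342_at and Postn have both red points below both blue points, while for the 2 brightest Cd44 probe sets the red points lie on either side of the blue ones.

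Signs of RNA quality and markers of other cells also separated the groups. The 3' to 5' signal ratio of Gapdh was 1.17 and 1.11 in Eph_EN_DN tumours 1 and 2, against 0.938 and 1.04 in Eph_EN tumours 1 and 2, and the ratio of beta-actin was 1.31 and 1.34 in Eph_EN_DN tumours, against 1.11 and 1.19 in Eph_EN tumours. The control probe sets for 18S rRNA averaged 6.76 and 7.43 in Eph_EN_DN tumours on the log2(intensity + 16) scale, against 5.43 and 6.40 in Eph_EN tumours. The 10 macrophage markers summed to 9641 to 12125 units in Eph_EN_DN tumours and 15259 to 18126 in Eph_EN tumours, with 9 of 10 differences negative. The 9 fibroblast markers summed to 11848 to 12079 units in Eph_EN_DN tumours and 11233 to 12904 in Eph_EN tumours, so those sums overlapped. The sums rest mainly on S100a4 and Dcn, and without this pair, taken out after the values were seen, the other 7 summed to 1157 and 1287 units in Eph_EN_DN tumours and 1294 and 2317 in Eph_EN tumours, which did not overlap. Of the 9 fibroblast markers, 5 were lower in Eph_EN_DN tumours without overlap and 1, Dcn, was higher. Over the brightest probe sets of 13331 genes, 2662 were lower without overlap and 2691 were higher. Among the 5, S100a4 differed by only -0.025. Sums were also lower without overlap for the 8 endothelial markers (398 to 489 units in Eph_EN_DN tumours and 533 to 716 in Eph_EN tumours) and the 8 pericyte and smooth muscle markers (1360 to 1497 units in Eph_EN_DN tumours and 1585 to 1866 in Eph_EN tumours). Without the brightest 2 genes of each list, endothelial sums stayed apart (197 and 248 units in Eph_EN_DN tumours, 259 and 370 in Eph_EN tumours). The pericyte and smooth muscle sums then overlapped (575 and 399 units in Eph_EN_DN tumours, 362 and 569 in Eph_EN tumours). The 7 adipocyte markers measured summed to 946 and 4606 units in Eph_EN_DN tumours 1 and 2, against 515 and 348 in Eph_EN tumours 1 and 2. No marker on these lists was listed at 0 on any array. The part of RNA quality and of cell mix in the differences below was not tested. All 7 epithelial markers were bright enough to be tested, and they summed to 2840 to 3114 units in Eph_EN_DN tumours and 3464 to 3707 in Eph_EN tumours, with 4 differences negative and 3 positive. Without their brightest 2 genes the epithelial sums overlapped, at 560 and 953 units in Eph_EN_DN tumours and 702 and 595 in Eph_EN tumours. Macrophage and adipocyte sums, cut in the same way, did not overlap.

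Sparc encodes a collagen-binding glycoprotein that loosens cell attachment and helps collagen fibres form. Its brightest probe set, 1416589_at, read 2302 and 2296 units in Eph_EN_DN tumours 1 and 2, against 3471 and 4911 units in Eph_EN tumours 1 and 2. The Eph_EN_DN values nearly coincided and lay below both Eph_EN values, which were themselves 1.42-fold apart. The difference was -0.84 ± 0.17 (SE, 95% interval -1.21 to -0.47, adjusted p = 0.0736), with an unadjusted p of 2.6e-04. A second probe set, 1448392_at, read 2175 and 2012 units in Eph_EN_DN tumours, against 3202 and 3254 units in Eph_EN tumours. The groups were again apart, by -0.62 ± 0.15 (adjusted p = 0.141), and here neither group spread more than 1.08-fold. The third, 1458204_at, was far dimmer and overlapped, at 103 and 78.9 units in Eph_EN_DN tumours and 79.4 and 103 units in Eph_EN tumours (0.0016 ± 0.24). Without Eph_EN tumour 1 the brightest probe set differed by -1.09, in a fit with no spread among Eph_EN tumours. With every array kept, the adjusted p of this probe set ran from 0.0452 to 0.534 over the settings tried. With the 3 probe sets averaged the Sparc difference was -0.49. With a single probe set for each gene its adjusted p was 0.0527, or 0.0452 where dim probe sets and the brightest one were chosen on the linear instead of the log2 mean.

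Postn encodes periostin, a secreted protein of fibroblasts that binds integrins and cross-links with collagen and fibronectin. Its only probe set, 1423606_at, read 2718 and 2229 units in Eph_EN_DN tumours 1 and 2, against 3809 and 4258 units in Eph_EN tumours 1 and 2. Both Eph_EN_DN tumours lay below both Eph_EN tumours. The group means were 2473 ± 346 units in Eph_EN_DN tumours and 4034 ± 317 units in Eph_EN tumours (SD), and the log2 difference was -0.71 ± 0.15 (SE, 95% interval -1.04 to -0.37, adjusted p = 0.0989). With each array left out in turn the Postn difference stayed between -0.85 and -0.56, the adjusted p above the threshold in all 17 other settings (0.0646 to 0.568).

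Tnc encodes tenascin-C, an anti-adhesive glycoprotein that is scarce in resting adult tissue and reappears in wounds and tumour stroma. The bright probe set 1416342_at read 762 and 553 units in Eph_EN_DN tumours 1 and 2, against 971 and 1647 units in Eph_EN tumours 1 and 2. The groups did not overlap, but the Eph_EN tumours were 1.70-fold apart. The difference was -0.95 ± 0.24 (SE, 95% interval -1.47 to -0.42, adjusted p = 0.197). It was -1.32 without Eph_EN tumour 1 and -0.57 without Eph_EN tumour 2, in fits with no spread among Eph_EN tumours. With every array kept, its adjusted p ran from 0.0681 to 0.568 over the settings tried. A dim probe set of Tnc, 1456344_at, read 27.8 and 18.7 units in Eph_EN_DN tumours and 24.4 and 64.4 units in Eph_EN tumours, with overlap (-0.55 ± 0.40), and with an array left out its difference ran from -1.04 to -0.051 (without Eph_EN tumours 1 and 2 in turn).

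Thbs1 and Thbs2 encode thrombospondins, which restrain the growth of blood vessels. Thbs1 protein also binds Cd47 and can activate latent TGF-beta. The probe set 1460302_at of Thbs1 read 166 and 122 units in Eph_EN_DN tumours 1 and 2, against 393 and 134 units in Eph_EN tumours 1 and 2. The second, 1450377_at, read 106 and 54.4 units in Eph_EN_DN tumours and 252 and 88.3 units in Eph_EN tumours. On both, Eph_EN tumour 1 alone stood high and Eph_EN tumour 2 lay within the Eph_EN_DN range. The differences were -0.65 ± 0.36 (adjusted p = 0.614) and -0.85 ± 0.37 (adjusted p = 0.512). Without Eph_EN tumour 2 they were -1.37 and -1.53, while without Eph_EN tumour 1 they were 0.079 and -0.17. These fits hold no spread among Eph_EN tumours, so no p-value is given for them. With every array kept, the adjusted p ran from 0.431 to 0.652 for 1450377_at over the settings tried. For 1460302_at it ran from 0.535, with both probe sets averaged, to 0.714.

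The Thbs2 probe sets were 1.09-fold to 1.42-fold apart between the Eph_EN tumours, less than the 2.85-fold and 2.94-fold of Thbs1. The probe set 1422571_at read 344 and 278 units in Eph_EN_DN tumours 1 and 2, against 411 and 541 units in Eph_EN tumours 1 and 2 (-0.59 ± 0.22, SE, adjusted p = 0.436). The probe set 1450663_at read 338 and 253 units in Eph_EN_DN tumours, against 408 and 443 units in Eph_EN tumours (-0.51 ± 0.22, adjusted p = 0.496). Both separated the groups, and the second ran from -0.71 to -0.31 with an array left out. The third, 1447862_x_at, did not, at 158 and 106 units in Eph_EN_DN tumours and 123 and 175 units in Eph_EN tumours (-0.17 ± 0.25). Its suffix marks probes that may also bind other transcripts.

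Fn1 encodes fibronectin, the fibrous glycoprotein onto which cells attach through integrins such as Itga5 paired with Itgb1. The bright probe set 1426642_at read 7352 and 6279 units in Eph_EN_DN tumours 1 and 2, against 8467 and 9003 units in Eph_EN tumours 1 and 2. The groups did not overlap, and the difference was -0.36 ± 0.13 (SE, 95% interval -0.63 to -0.088, adjusted p = 0.396). These readings are near the top of the arrays, where the highest value on any of the 4 was 10240 to 10806 units. The dim probe set 1437218_at read 171 and 169 units in Eph_EN_DN tumours and 101 and 180 units in Eph_EN tumours, with overlap, and differed by 0.30 ± 0.26. The log2 ratio of the dim to the bright Fn1 probe set within an array was -5.30 and -5.09 in Eph_EN_DN tumours, against -6.18 and -5.52 in Eph_EN tumours. That ratio was higher in both Eph_EN_DN tumours, with a two-sided exact permutation p of 0.333, the smallest that 2 tumours against 2 can give (0.733 adjusted over the 11 such ratios computed). The same p and direction were also found for the dimmest probe sets of Sparc, Tnc and Thbs2 against the brightest of their gene. With both probe sets averaged the Fn1 difference was -0.033.

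**Figure D2:**
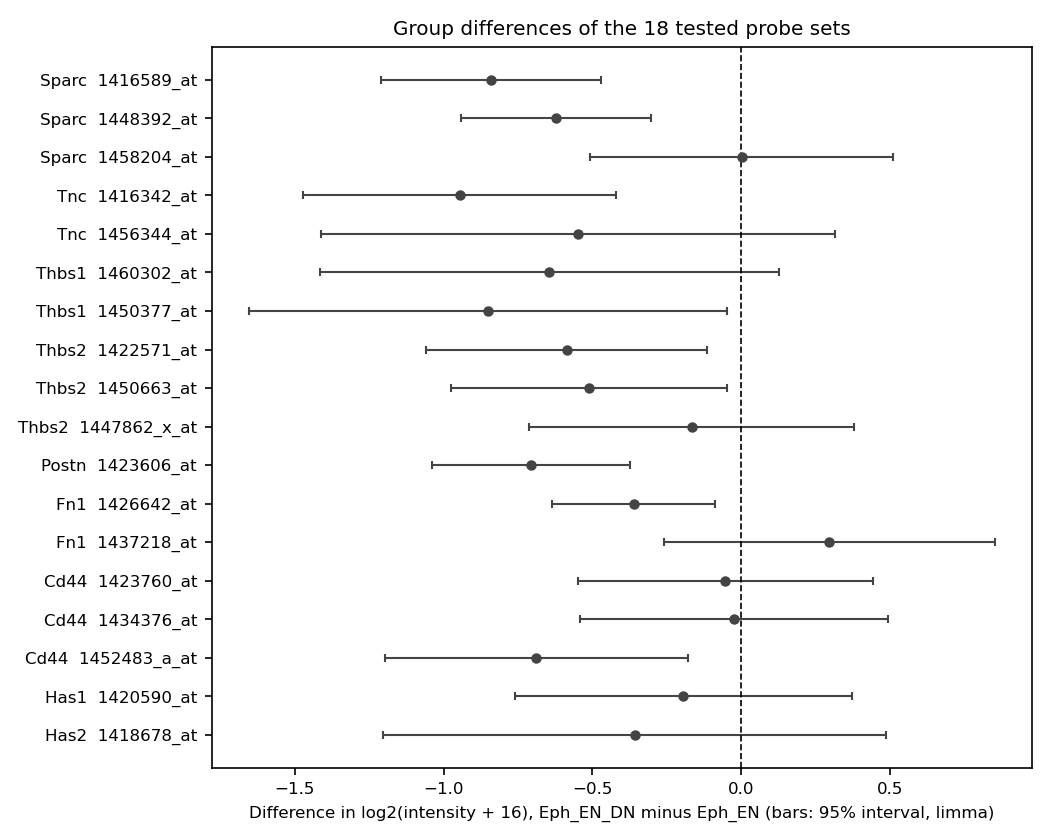
Difference between the groups (horizontal axis, log2(intensity + 16), Eph_EN_DN minus Eph_EN) for each of the 18 tested probe sets, with the 95% interval from limma as bars and a dashed line at 0. The points run from -0.95 for Tnc 1416342_at to 0.30 for Fn1 1437218_at, and none passed an adjusted p under 0.05.

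Has1 and Has2 make hyaluronan, with Has2 the main synthase in embryonic and stromal cells. The Has1 probe set 1420590_at read 56.4 and 42.5 units in Eph_EN_DN tumours 1 and 2, against 67.8 and 50.2 units in Eph_EN tumours 1 and 2. The groups overlapped and differed by -0.19 ± 0.26 (SE, 95% interval -0.76 to 0.37, adjusted p = 0.863), and the difference was -0.024 without Eph_EN tumour 1 and -0.36 without Eph_EN tumour 2. The Has2 probe set 1418678_at read 20.7 and 23.4 units in Eph_EN_DN tumours, against 40.7 and 25.9 units in Eph_EN tumours. These groups were apart by a narrow margin and differed by -0.36 ± 0.39 (95% interval -1.20 to 0.49, adjusted p = 0.824), or by -0.14 without Eph_EN tumour 1 and -0.58 without Eph_EN tumour 2. The other Has2 probe set, 1449169_at, fell below the filter, at 12.0 and 24.1 units in Eph_EN_DN tumours and 22.8 and 20.2 units in Eph_EN tumours. Both intervals hold 0 and differences of either sign, so neither a fall nor a lack of change can be read from them at this signal.

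Cd44, the receptor through which cells bind hyaluronan and osteopontin, was read by 4 probe sets whose differences were unlike in size. Its brightest probe set, 1423760_at, read 933 and 575 units in Eph_EN_DN tumours 1 and 2, against 688 and 841 units in Eph_EN tumours 1 and 2. The Eph_EN_DN tumours enclosed the Eph_EN tumours, and the difference was -0.052 ± 0.23 (SE, 95% interval -0.55 to 0.44). The probe set 1434376_at followed the same order, at 775 and 480 units in Eph_EN_DN tumours and 538 and 715 units in Eph_EN tumours (-0.023 ± 0.24). The probe set 1452483_a_at, whose suffix marks probes shared by several transcripts of 1 gene, read 60.3 and 81.3 units in Eph_EN_DN tumours, against 138 and 110 units in Eph_EN tumours. On it both Eph_EN_DN tumours were below both Eph_EN tumours, and the difference was -0.69 ± 0.24 (95% interval -1.20 to -0.18, adjusted p = 0.379). The log2 ratio of 1452483_a_at to the brightest probe set within an array was -3.64 and -2.60 in Eph_EN_DN tumours and -2.20 and -2.77 in Eph_EN tumours. These ratios overlapped (exact permutation p = 0.667, two-sided, 0.815 adjusted over the 11 ratios). With 2 tumours against 2 this test cannot give a p below 0.333, so it cannot show whether this pair of probe sets differs. The fourth, 1443265_at, was below the filter, at 0.803 and 1.94 units in Eph_EN_DN tumours and 14.3 and 11.4 units in Eph_EN tumours, all far under the array medians of 35.6 to 40.8 units. Its log2 ratio to the brightest was -5.82 and -5.04 in Eph_EN_DN tumours, against -4.54 and -4.97 in Eph_EN tumours, without overlap (exact permutation p = 0.333, two-sided, 0.733 adjusted over the 11 ratios).

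Other genes of the same pathways were read from their brightest probe sets. Among the other matricellular genes, 20 of 28 were bright enough, 0 passed in either direction, and 14 differences were negative, with a median of -0.22 beside 0.019 over the brightest probe sets of 13331 genes. The 9 genes of the set itself had a median of -0.59 on the same footing, with all 9 negative. Ccn1, a matricellular protein that signals through integrins, read 176 and 244 units in Eph_EN_DN tumours and 374 and 414 units in Eph_EN tumours (-0.88 ± 0.22, adjusted p = 0.186). Sparcl1, a close relative of Sparc, read 115 and 122 units in Eph_EN_DN tumours and 161 and 327 units in Eph_EN tumours (-0.88 ± 0.28, adjusted p = 0.340). Both genes had groups that did not overlap.

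Receptors of these proteins lay mostly on the same side of 0. Of 15 integrins, syndecans and other receptors, 14 were tested, 0 passed, 11 were negative and the median was -0.29, where 47.8% of the 13331 genes were negative. Itgb5, the beta chain of a vitronectin and periostin receptor, read 715 and 799 units in Eph_EN_DN tumours and 1490 and 1292 units in Eph_EN tumours (-0.86 ± 0.18, adjusted p = 0.0847). Itga5, the alpha chain of the fibronectin receptor, read 146 and 151 units in Eph_EN_DN tumours and 231 and 291 units in Eph_EN tumours (-0.74 ± 0.22, adjusted p = 0.289). The groups did not overlap for either chain. The 15 receptors summed to 4923 to 4985 units in Eph_EN_DN tumours and 6640 to 6656 units in Eph_EN tumours.

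Genes of hyaluronan synthesis, binding and turnover lay on both sides of 0. Of 27 genes, 26 were named on the array, 19 were tested, 0 passed, and 8 were negative and 11 positive, with a median of 0.018. Hapln3, a link protein that ties hyaluronan to proteoglycans, read 32.1 and 65.2 units in Eph_EN_DN tumours and 25.2 and 4.94 units in Eph_EN tumours (1.09 ± 0.45, adjusted p = 0.487). Cemip, which takes part in hyaluronan breakdown, read 19.7 and 61.6 units in Eph_EN_DN tumours and 22.3 and 17.9 units in Eph_EN tumours (0.55 ± 0.44, adjusted p = 0.741). Only Hapln3 of this pair had groups that did not overlap, and both genes were dim.

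Partners of Cd44 (cytoskeletal linkers, proteases that cleave it, splicing factors and Met) held 9 tested genes of 11, with 0 past the threshold, 7 negative and a median of -0.17. The receptor kinase Met read 298 and 194 units in Eph_EN_DN tumours and 132 and 179 units in Eph_EN tumours (0.60 ± 0.25, adjusted p = 0.496). The protease Mmp9 read 69.1 and 39.6 units in Eph_EN_DN tumours and 91.2 and 72.2 units in Eph_EN tumours (-0.50 ± 0.27, adjusted p = 0.596). The epithelial splicing factors Esrp1 and Esrp2 were left out as dim.

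**Figure D3:**
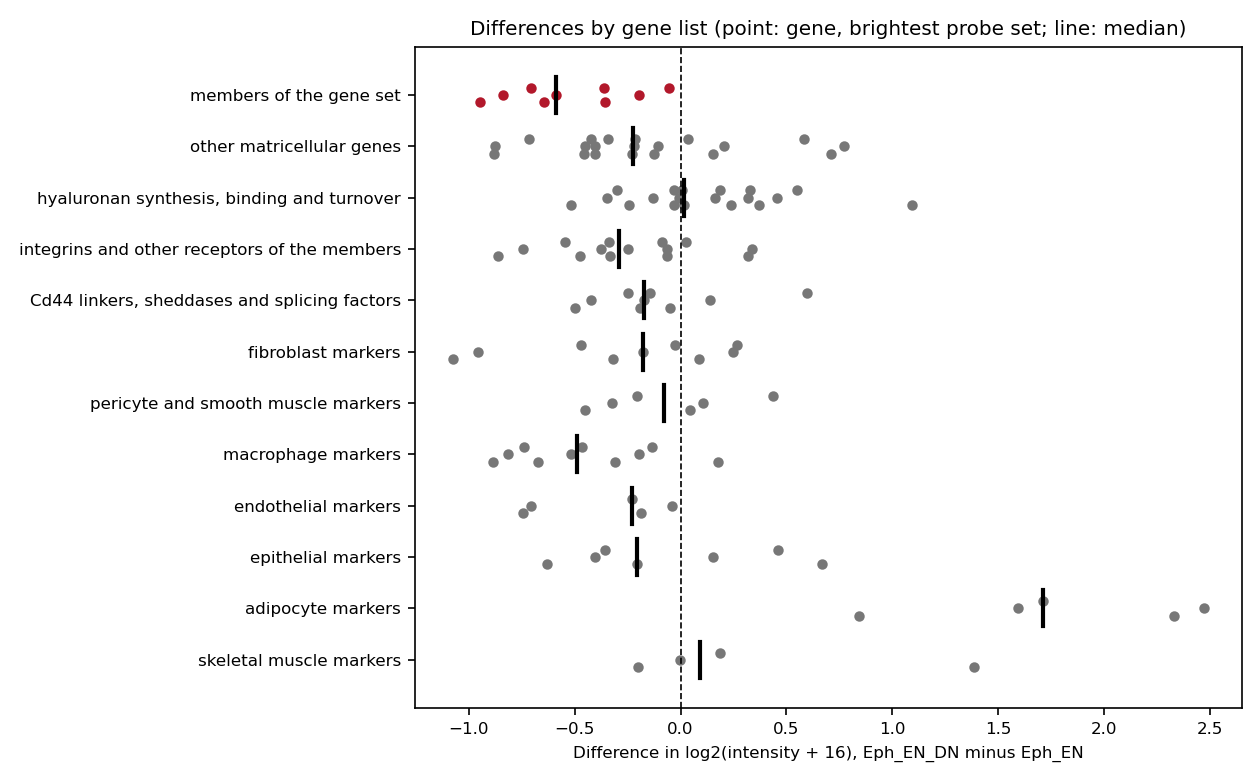
Difference between the groups (horizontal axis, log2(intensity + 16), Eph_EN_DN minus Eph_EN) for each tested gene, by list, with 1 point for the brightest probe set of a gene and a line at the list median. The 9 genes described here, in red, have a median of -0.59, the other matricellular genes -0.22, the hyaluronan genes 0.018, the fibroblast markers -0.18 and the macrophage markers -0.49.

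Markers of stromal and other cells were read on the same arrays. Of 9 fibroblast markers, 0 passed and 6 were negative, with a median of -0.18. Lum, the matrix proteoglycan lumican, differed by -1.07 ± 0.27 (SE, adjusted p = 0.177) and Thy1 by -0.96 ± 0.34 (adjusted p = 0.398). The 10 macrophage markers had a median of -0.49 with 0 past the threshold, with lysozyme, Lyz2, at -0.88 ± 0.19 (adjusted p = 0.0942) and C1qb, of the complement system, at -0.82 ± 0.18 (adjusted p = 0.113). Of 8 pericyte and smooth muscle markers, 6 were tested, 0 passed and 3 were negative (median -0.079), with Pdgfrb at -0.45 and Des at 0.44. Of 8 endothelial markers, 5 were tested, 0 passed and 5 were negative (median -0.23), with Cdh5 at -0.74 and Eng at -0.70. Of 7 epithelial markers, 0 passed and 4 were negative (median -0.20), with Krt14 at 0.67 and Krt5 at -0.63. All 5 adipocyte markers tested were positive (median 1.71, 0 past the threshold), with Fabp4 at 2.47 and Adipoq at 2.33. Each read highest in Eph_EN_DN tumour 2. Fabp4 read 559 and 2825 units in Eph_EN_DN tumours 1 and 2, against 250 and 183 in Eph_EN tumours 1 and 2. Adipoq read 128 and 824 units, against 76.5 and 35.7. Of 7 skeletal muscle markers, 4 were tested, with 2 negative and 2 positive (median 0.091). Myh1, a fast myosin heavy chain, was higher by 1.39 ± 0.24 (adjusted p = 0.0371), where 0.0555% of all probe sets tested were called higher. The other muscle markers tested overlapped between the groups, with differences of -0.20 to 0.19.

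The genes whose pattern over the 4 arrays lay nearest were found by Euclidean distance between log2 values, each centred on its own mean, among 22555 tested probe sets with 1 symbol. For Sparc 1416589_at they were Arhgap22 (distance 0.039), Pcdh19 (0.060) and Gpx3 (0.083). For Postn they were Rdh10 (0.039), Tmem203 (0.050) and Vasn (0.057), and for Tnc 1416342_at Hdhd3 (0.14), Col3a1 (0.15) and Ints5 (0.17). With 4 arrays these distances describe the arrays only.

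**Figure D4:**
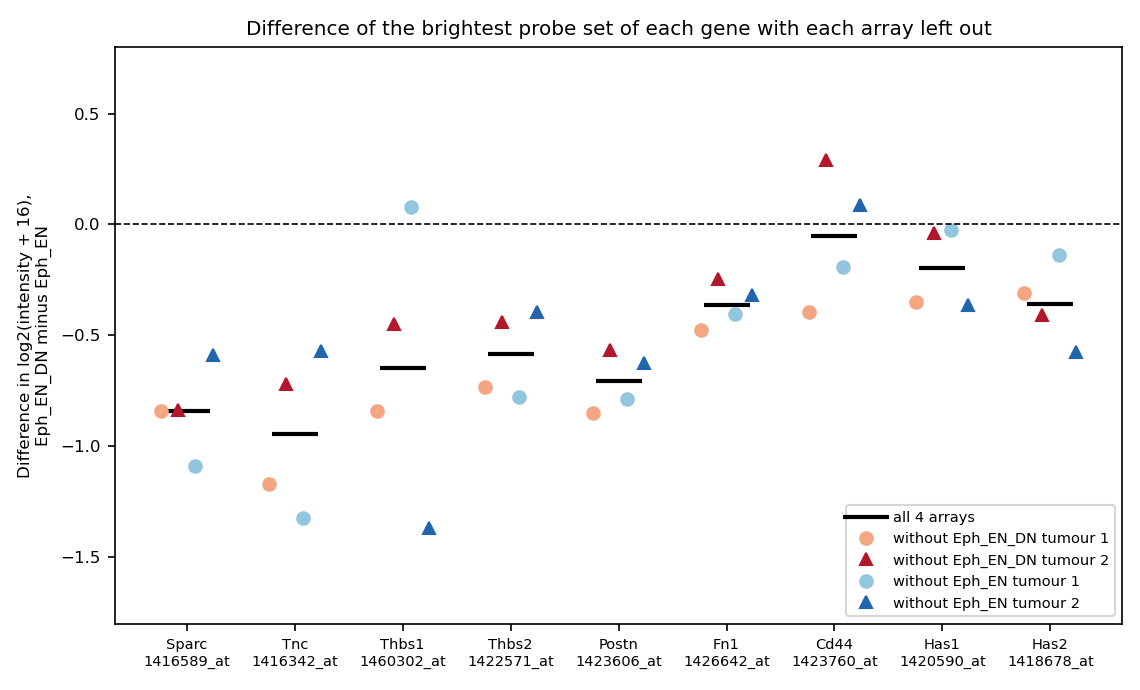
Difference between the groups (vertical axis, log2(intensity + 16), Eph_EN_DN minus Eph_EN) for the brightest probe set of each gene, with all 4 arrays (black bars) and with each array left out (red circles and triangles for Eph_EN_DN tumours 1 and 2, blue ones for Eph_EN tumours 1 and 2). Thbs1 1460302_at ran from -1.37 to 0.079 and Cd44 1423760_at from -0.39 to 0.29, while Postn stayed between -0.85 and -0.56.

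The tumours on which a value rests differed between genes. Eph_EN tumour 2 was the highest of the 4 for Sparc 1416589_at, Tnc 1416342_at, Thbs2 1422571_at, Postn and Fn1 1426642_at, and Eph_EN tumour 1 was the highest for both Thbs1 probe sets, Has1 and Has2 1418678_at. Eph_EN_DN tumour 2 was the lowest of the 4 for each of these except Has2, where Eph_EN_DN tumour 1 was lowest. The labels number the tumours but do not state that each came from its own animal or culture, so p-values cover only the spread seen among these 4 samples, part of which may be technical.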

How the data were processed

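The deposited values are linear intensities, with 45101 probe sets on each array. Per the labels, total RNA was extracted with Trizol and biotinylated cRNA was hybridised. The authors' probe summary, background correction and scaling are not given in the sources used here, and no detection call was used. The number of arrays limits the precision.

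Names came from the platform annotation (34945 with 1 symbol, 932 with several, 9160 with none, besides 64 controls), with symbols looked up by Entrez ID in RefSeq (GRCm38.p6). Controls and the dimmest 40% of probe sets, by mean log2(intensity + 16), were left out, which kept 27022. The added 16 understates changes of dim genes. Each was tested two-sided with limma 3.58.1 (R 4.3.3) by lmFit and eBayes, using an intensity trend and Benjamini-Hochberg adjustment over all kept, without a term for tumour number. On simulated data for these 27022 probe sets the fit called 66% of 100 bright probe sets changed 2-fold and 100% of 100 changed 4-fold. It also called 31 unchanged ones, and 0 when none was changed. The simulated noise was normal, independent and drawn with the variances of this same fit, so recovery on the real arrays was not tested. Tables and plots used Python 3.11.15, pandas 2.3.3 and matplotlib 3.10.9.

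From each of 11 lists, up to 4 genes past the threshold were named, or else the 2 with the largest difference, and the nearest patterns were sought for the 3 genes whose brightest probe set differed most. Genes given only as roles or as left out, and S100a4 and Dcn, fall outside that rule. Members and lists were chosen with earlier results of these data known.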

Additional observations from a re-analysis of the deposited data

How the results depend on the processing

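The alternatives were 15 planned settings and 2 added after seeing the data (dim probe sets left out on the mean linear intensity, with every probe set or with 1 for each gene). Counts are not given for fits with an array left out, where 1 group has no spread of its own. With every array kept, 0 probe sets of this gene set passed in either direction in each setting except 1. There 1 (Sparc) was lower in Eph_EN_DN tumours, with 1 probe set for each gene chosen on the linear mean. At an unadjusted p under 0.05, 6 to 9 were lower where every probe set was tested, and 3 to 5 of the 9 genes with 1 value for each gene. None was higher at that threshold. Over all probe sets, 43 were lower and 15 higher. These counts were 115 and 36 when dim probe sets were kept, 28 and 9 with median centring, 28 and 7 with 1 average for each gene, 0 and 0 when no intensity trend was used (2167 at an unadjusted p under 0.05 in limma), and 22 to 142 and 14 to 121 with an array left out. With the tumour number as a replicate block they were 5 and 2, and 0 for this gene set. The labels state no link between tumours of equal number. The correlation between groups of the tumour 1 minus tumour 2 deviations was -0.042 over 27022 probe sets. With 1 such deviation in each group it cannot show whether the tumours are paired.

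Of 279 differences under an alternative, of probe sets or, in 1 setting, of gene averages, 262 kept their direction without a call and 12 changed direction. The others became calls, mostly in fits with 1 Eph_EN tumour, and the cause was not tested. None was a call in the main setting, so the 262 only stayed without one. They include 1 difference each of the Cd44 and Has2 probe sets left out as dim, which had no main test. Sparc 1458204_at was at -0.039 with quantile normalization, -0.097 with median centring and -0.16 to 0.17 with an array left out. With an array left out, Cd44 1423760_at ran from -0.39 to 0.29, Cd44 1434376_at from -0.36 to 0.31, Fn1 1437218_at from -0.078 to 0.67, Thbs1 1460302_at from -1.37 to 0.079 and Thbs2 1447862_x_at from -0.42 to 0.093. Where only 1 tumour of a group remained, the fit took its spread from the other group.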
